A study of Mus musculus with 18 samples.

Results

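Alanine tRNAs read the 4 alanine codons with 3 anticodons, AGC, CGC and TGC. Their members here are every mature tRNA and every pre-tRNA locus of the deposited table whose name begins with tRNA-Ala, chosen by name and not by level, that is the families tRNA-Ala-AGC, tRNA-Ala-CGC and tRNA-Ala-TGC: 43 of the 548 cytosolic tRNA entries. Of these, 24 are mature tRNAs (9 AGC, 7 CGC, 8 TGC) of 213, and 19 are pre-tRNA loci (10 AGC, 4 CGC, 5 TGC) of 335. A mature tRNA is named by anticodon and sequence (Ala-TGC-2), and a locus, that is 1 gene copy, carries a further number (Ala-TGC-2-1).

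A tRNA gene is transcribed by RNA polymerase III into a precursor with a 5′ leader and a 3′ trailer, which are cut away before the CCA end is added. None of the alanine families is among the intron-containing families of the mouse, so their precursors do not need the tRNA ligase complex that joins tRNA exons. Alanyl-tRNA synthetase recognises these tRNAs mainly by a G:U pair in the acceptor stem rather than by the anticodon, so all anticodons are charged by 1 cytosolic enzyme. In Ala-AGC the first anticodon base is changed from adenosine to inosine by the ADAT2/ADAT3 deaminase, which widens the set of codons it can read. Ala-CGC reads the codon that ends in G, and Ala-TGC, whose DNA T is a U in RNA, reads chiefly the codon that ends in A.

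The data are Hydro-tRNA-seq libraries of hippocampus from male mice, 1 library per mouse: RNA of 60 to 100 nucleotides was cut from a gel, broken by alkaline hydrolysis and sequenced, so a read covers only a piece of a tRNA. The mice were WT, on a B6SJL background, or 5xFAD, a line that models Alzheimer's disease by neuronal expression of mutant human amyloid precursor protein and presenilin. At 6 months, the CA1 region and dentate gyrus of every mouse received a neuron-targeted virus, rAAV2/8-H1-shControl-RSV-GFP (shCT) or rAAV2/8-H1-shRTP801-RSV-GFP (shRTP801), and both hippocampi were taken 4 weeks later; cells not reached by the virus remain in the sample. There were 5 WT and 3 5xFAD mice with the control virus (WT shCT, 5xFAD shCT) and 4 WT and 6 5xFAD mice with the silencing virus (WT shRTP801, 5xFAD shRTP801), and their comparison asks how tRNA pools differ with the disease model and with silencing of RTP801, a stress-responsive protein encoded by Ddit4.

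Libraries held 18126375 to 34488923 reads, of which 47875 to 318628 were precursor reads. These totals count reads of near-identical mature tRNAs more than once. In 3 libraries (WT shCT mouse 5, WT shRTP801 mouse 4 and 5xFAD shRTP801 mouse 7), 98.0% to 98.7% of all reads were mature tRNA, against 31.9% to 85.8% in the other 15, and mitochondrial tRNA made up 0.00315% to 0.435% of reads against 8.59% to 39.8%. None of these 3 is a 5xFAD shCT mouse, and the main comparisons of family shares are given with and without them. In 5xFAD shCT mice 39.1% to 52.9% of reads were mature tRNA, so leaving out the 3 libraries does not even out library composition. All 23 entries chosen as small RNAs typical of neurons were detected, and the marker genes chosen for blood and for microglia were not in the table. The messenger RNA of the silenced gene is not measured by this assay.

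Shares are percentages of the reads of a class (all precursor reads or all mature tRNA reads), not corrected for length, and are given as mean ± SD over mice. Among precursors, Ala-TGC held 1.62% ± 0.815 of reads over the 18 mice and was number 11 of 48 families, Ala-CGC held 0.663% ± 0.504 (number 20) and Ala-AGC 0.122% ± 0.0403 (number 38). Alanine precursors were mostly TGC: 69.4% ± 9.67 of alanine precursor reads were TGC, 24.9% ± 9.91 were CGC and 5.71% ± 1.98 were AGC, although AGC has the most loci. In each of the 18 mice the order was TGC, CGC, AGC. Counting error set a limit for AGC, with 34 to 472 precursor reads per library and a Wilson 95% interval of 9.02% to 34.1% of the value to either side; for CGC (101 to 2874 reads) it was 3.64% to 19.6%, and for TGC (552 to 4251 reads) 2.99% to 8.32%. These intervals cover counting error only.

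The 19 loci were very unequal. Every locus passed the filter on low values (a mean share of at least 0.001% over the 18 mice), but only 5 held at least 0.05%: Ala-TGC-2-1 (0.756% ± 0.426), Ala-CGC-1-1 (0.477% ± 0.386), Ala-TGC-3-1 (0.443% ± 0.355), Ala-TGC-1-1 (0.375% ± 0.270) and Ala-CGC-1-2 (0.176% ± 0.126). The other 14 had means of 0.00212% to 0.0431%, and all 10 AGC loci are among them. Ala-CGC-1-1 and Ala-CGC-1-2 together gave nearly all CGC precursor reads (68.9% and 28.2% on average). By kind, 99.8% of alanine precursor reads were partial precursors, with 55 whole-precursor and 26 trailer reads over all libraries, so neither of the rarer kinds could be compared between groups.

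Of the 5 main loci, 4 went up and down together from mouse to mouse and 1 did not. Over the 18 mice, the log2 shares of Ala-CGC-1-1, Ala-CGC-1-2, Ala-TGC-1-1 and Ala-TGC-3-1 correlated with each other at Pearson's r of 0.96 to 0.99 (Spearman's rho 0.92 to 0.97), and at 0.95 to 0.98 without the 2 mice farthest from the median. Ala-TGC-2-1 correlated with them at r of -0.26 to -0.13 (rho -0.23 to -0.07), at -0.50 to -0.23 without the 2 farthest mice, and at 0.08 to 0.25 without the 3 libraries with over 95% mature reads. These correlations are descriptions over libraries that share the same denominator, and reads that match several of these loci cannot be told apart in the table.

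The summed share of these 4 loci was 2.31%, 2.40%, 0.686%, 3.87% and 0.850% of precursor reads in WT shCT mice 3, 5, 6, 11 and 15. It was 2.29%, 0.608%, 0.650% and 0.402% in WT shRTP801 mice 4, 10, 17 and 21, and 0.406%, 0.691% and 0.559% in 5xFAD shCT mice 1, 16 and 18. In the 6 5xFAD shRTP801 mice the lowest value was 0.471% and the highest 3.35%. The widest gap on a ratio scale lay between 0.850% and 1.37%, with 8 mice above it: 3 of 5 WT shCT, 1 of 4 WT shRTP801, 0 of 3 5xFAD shCT and 4 of 6 5xFAD shRTP801. All 3 libraries with over 95% mature reads are among those 8. Mature tRNA made up 57.0% to 98.7% of reads in those 8 and 31.9% to 81.0% in the other mice. In 5xFAD shCT it was 39.1% to 52.9%. Whether the summed share follows library composition was not tested.

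**Figure D1:**
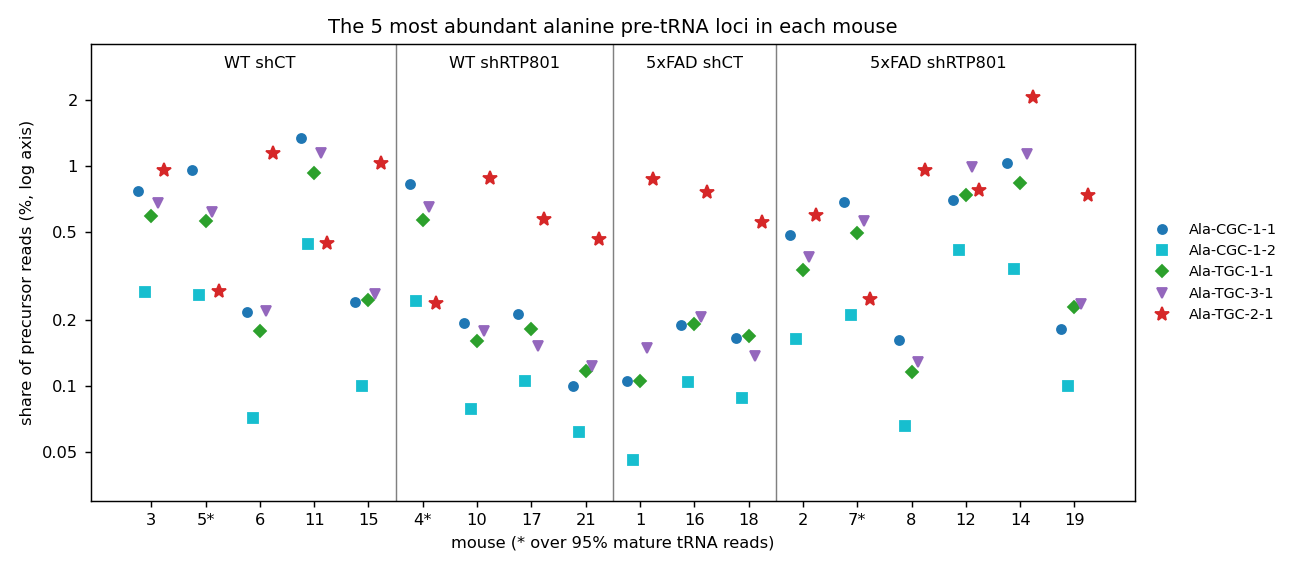
Share of all precursor reads (percent, log axis) of the 5 most abundant alanine pre-tRNA loci in each of the 18 mice, by group, with mice of over 95% mature tRNA reads starred. The 2 CGC loci, Ala-TGC-1-1 and Ala-TGC-3-1 move in step, while Ala-TGC-2-1 lies above them in most mice and is lowest, at 0.238% to 0.269%, in the 3 starred libraries.

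Ala-TGC-2-1 behaved differently with library type. It held 0.238% to 0.269% of precursor reads in the 3 libraries with over 95% mature reads and 0.445% to 2.06% in the other 15, without overlap. Its group means lay within the spread between mice, at 0.773% ± 0.390 (SD, n = 5) in WT shCT, 0.540% ± 0.267 (n = 4) in WT shRTP801, 0.730% ± 0.158 (n = 3) in 5xFAD shCT and 0.899% ± 0.617 (n = 6) in 5xFAD shRTP801. The highest value of any mouse, 2.06%, was in 5xFAD shRTP801 mouse 14.

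Precursors of all alanine families together were lower in 5xFAD shCT than in WT shCT mice. They held 3.46%, 2.82%, 1.98%, 4.60% and 2.02% of precursor reads in WT shCT mice 3, 5, 6, 11 and 15, and 1.43%, 1.61% and 1.27% in 5xFAD shCT mice 1, 16 and 18. Every 5xFAD shCT value lay below every WT shCT value. The log2 ratio of the means was -1.05 (exact permutation test, two-sided, p = 0.0357, which is the smallest this design allows; adjusted over the 22 amino acids p = 0.224). Groups did not overlap in this direction for 9.09% of the 22 amino acids, so alanine is 1 of 2. Without the 3 libraries with over 95% mature reads the ratio was -1.07, with no overlap (exact p = 0.0571, the smallest then possible). Mature tRNA then still made up 39.1% to 52.9% of reads in 5xFAD shCT and 31.9% to 82.4% in WT shCT. The part played by this composition was not tested. In hippocampal RNA, fewer cells of a type and less RNA per cell cannot be told apart.

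With RTP801 silenced, 5xFAD mice had alanine precursor shares of 1.60% to 5.67% (median 2.27%, n = 6), a log2 ratio of 1.01 to 5xFAD shCT (exact p = 0.0476, adjusted p = 0.210), with 1 mouse below the highest 5xFAD shCT mouse; by the absolute difference the exact p was 0.119. That ratio was 1.059 without the 3 libraries (exact p = 0.0714). In WT mice the silenced group was lower instead, at 2.76%, 1.67%, 1.37% and 1.02% in mice 4, 10, 17 and 21, a log2 ratio of -0.80 to WT shCT (exact p = 0.0794, adjusted p = 0.407). The groups overlapped there through mouse 4, and without the 3 libraries the log2 ratio was -1.16 with no overlap (exact p = 0.0571, the smallest then possible). Between the silenced groups, the 5xFAD to WT log2 ratio was 0.76 (exact p = 0.210, adjusted p = 0.748), and 1.14 without the 3 libraries (exact p = 0.107). The comparisons with 5xFAD shCT share its 3 mice, and those with WT shCT its 5 mice.

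**Figure D2:**
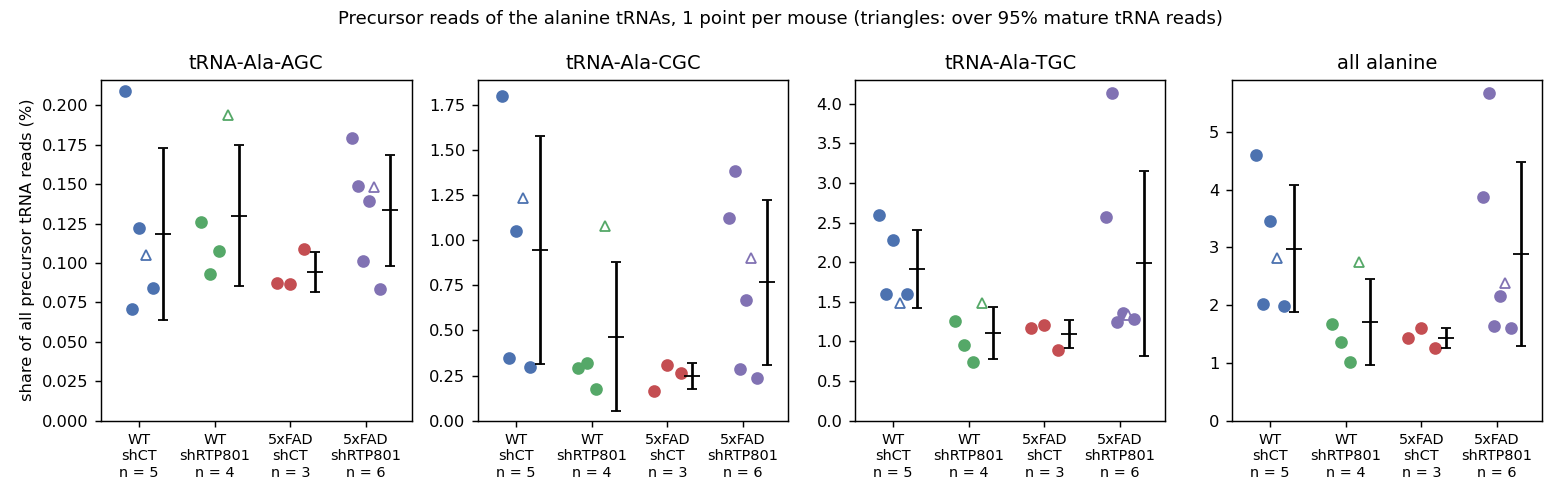
Share of all precursor tRNA reads (percent, axis from 0) of Ala-AGC, Ala-CGC, Ala-TGC and their sum, 1 point per mouse in each group; open triangles are the 3 libraries with over 95% mature tRNA reads, and bars give mean ± SD. For Ala-TGC and the sum, the 5xFAD shCT points lie below every WT shCT point, while Ala-AGC overlaps between all groups.

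Of the alanine families, Ala-TGC alone had every 5xFAD shCT value below every WT shCT value. The 4 loci that moved together, of both CGC and TGC, had a mean of 2.02% in WT shCT and 0.552% in 5xFAD shCT. Ala-TGC-2-1 had means of 0.773% and 0.730%. The Ala-TGC share was 2.29%, 1.48%, 1.60%, 2.59% and 1.60% in WT shCT mice 3, 5, 6, 11 and 15, and 1.18%, 1.21% and 0.893% in 5xFAD shCT mice 1, 16 and 18. The groups did not overlap, which held in this direction for 4.17% of the 48 precursor families; the log2 ratio was -0.81 (exact p = 0.0357, adjusted over 48 families p = 0.490). If extremeness is counted by the absolute difference rather than by the smaller tail, that p was 0.0714. In 5xFAD shRTP801 mice the share ran from 1.25% to 4.14% (median 1.35%), again without overlap with 5xFAD shCT, at a log2 ratio of 0.86 (exact p = 0.0238, adjusted p = 0.286); 2.08% of families stood apart in that direction, which is Ala-TGC alone. By the absolute difference the exact p of this comparison was 0.0952. With single mice left out the ratio ranged from 0.51 to 0.97. Without the 3 libraries the Ala-TGC ratios were -0.89 for 5xFAD shCT to WT shCT and 0.95 for 5xFAD shRTP801 to 5xFAD shCT, with no overlap (exact p = 0.0571 and 0.0357, the smallest then possible).

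In WT mice, Ala-TGC precursors held 1.49%, 1.26%, 0.956% and 0.742% with RTP801 silenced (mice 4, 10, 17 and 21), a log2 ratio of -0.79 to WT shCT (exact p = 0.0317, adjusted p = 0.457). Only mouse 4, 1 of the 3 libraries with over 95% mature reads, overlapped the WT shCT range, and without the 3 libraries the log2 ratio was -1.04. The 5xFAD to WT ratio of the silenced groups was 0.84 on the log2 scale (exact p = 0.114, adjusted p = 1.0), and 1.11 without the 3 libraries (exact p = 0.0714).

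Ala-CGC, the anticodon for the codon that ends in G, had larger ratios than Ala-TGC in 3 of the 4 comparisons of groups and was the most scattered. Its share was 1.05%, 1.23%, 0.295%, 1.80% and 0.347% in WT shCT mice 3, 5, 6, 11 and 15, against 0.167%, 0.311% and 0.264% in 5xFAD shCT mice 1, 16 and 18. Only WT shCT mouse 6 fell within the 5xFAD shCT range, and the log2 ratio was -1.94 (exact p = 0.0714, adjusted p = 0.490). In WT shRTP801 the values were 1.08%, 0.289%, 0.322% and 0.175%, of which the first is mouse 4, and without the 3 libraries the log2 ratio to WT shCT moved from -1.02 to -1.74. In 5xFAD shRTP801 the share was 0.237% to 1.39% (median 0.784%), a log2 ratio of 1.63 to 5xFAD shCT with overlap (exact p = 0.119, adjusted p = 0.408). Between the silenced groups the 5xFAD to WT ratio was 0.72 (log2, exact p = 0.324), below that of Ala-TGC, and without the 3 libraries it was 1.5 (exact p = 0.214). The ratios to 5xFAD shCT and of 5xFAD shCT to WT shCT were then 1.58 and -1.82.

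Ala-AGC precursors differed little by comparison. The group means were 0.118% ± 0.0544 (SD, n = 5) in WT shCT, 0.130% ± 0.0446 (n = 4) in WT shRTP801, 0.0943% ± 0.0126 (n = 3) in 5xFAD shCT and 0.133% ± 0.0350 (n = 6) in 5xFAD shRTP801. All 4 ranges overlapped.

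In limma, fitted to log2 shares of all 48 precursor families over the 18 mice, no alanine family passed an adjusted p of 0.05 in any of the 5 comparisons (0 of 48 families called in each, 0.0%). In this limma fit, at an unadjusted p under 0.05, Ala-CGC was lower in 5xFAD shCT than in WT shCT (log2 change -1.65 ± 0.72 SE, adjusted p = 0.312), where 12.5% of families had such a p (10.4% higher, 2.08% lower). All 3 alanine families had a lower mean there, as 52.1% of families did. Ala-TGC was lower in WT shRTP801 than in WT shCT (log2 change -0.80 ± 0.36, adjusted p = 0.388; 4.17% of families had an unadjusted p under 0.05). In that comparison Ala-CGC was also lower on average and Ala-AGC higher, with 58.3% of families lower. All 3 had a higher mean in 5xFAD shRTP801 than in 5xFAD shCT, where 60.4% of families were lower, and than in WT shRTP801, where 6.25% had an unadjusted p under 0.05, none of them alanine. The interaction, which is the effect of silencing in 5xFAD minus that in WT, was 2.44 ± 0.96 for Ala-CGC and 1.51 ± 0.53 for Ala-TGC, each at an adjusted p of 0.227, with 20.8% of families at an unadjusted p under 0.05 (8.33% with a positive value). For Ala-AGC it was 0.28 ± 0.48 (adjusted p = 0.725). edgeR and DESeq2 on the recovered reads called no alanine family either, with a lowest adjusted p of 0.183 in edgeR and 0.0716 in DESeq2, both for the interaction. Without the 3 libraries the limma interaction was 2.69 for Ala-CGC and 1.83 for Ala-TGC, at an adjusted p of 0.0919.

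The share of AGC within alanine precursors separated more groups than the AGC level did. It was 3.53%, 3.73%, 4.23%, 4.54% and 3.52% in WT shCT mice 3, 5, 6, 11 and 15, and 6.11%, 5.38% and 8.60% in 5xFAD shCT mice 1, 16 and 18. In WT shRTP801 mice 4, 10, 17 and 21 it was 7.03%, 7.54%, 6.77% and 10.5%. In 5xFAD shRTP801 mice it ran from 2.63% to 6.45%.

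Both 5xFAD shCT and WT shRTP801 mice lay entirely above WT shCT, and 5xFAD shRTP801 mice entirely below WT shRTP801. Some gaps lie within counting error: 5.38% (5xFAD shCT mouse 16, 44 AGC reads) against 4.54% (WT shCT mouse 11, 273 reads). Likewise 6.45% (5xFAD shRTP801 mouse 2, 90 reads) stood against 6.77% (WT shRTP801 mouse 17, 81 reads). This share also depends on CGC and TGC reads, and the AGC level itself was lower in 5xFAD shCT than in WT shCT (log2 ratio -0.33). The log2 ratios were 0.78 for 5xFAD shCT to WT shCT (exact p = 0.0357, adjusted over the 38 families of amino acids with several anticodons p = 0.452), 1.03 for WT shRTP801 to WT shCT (exact p = 0.0159, adjusted p = 0.603) and -0.61 for 5xFAD shRTP801 to WT shRTP801 (exact p = 0.00952, adjusted p = 0.362). Each p is the smallest this test allows in its design. Groups stood apart in these directions for 5.26%, 2.63% and 2.63% of the 38 families. Without the 3 libraries the log2 ratios were 0.76, 1.07 and -0.72, and the groups still did not overlap; the smallest possible exact p was then 0.0571, 0.0571 and 0.0357.

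**Figure D3:**
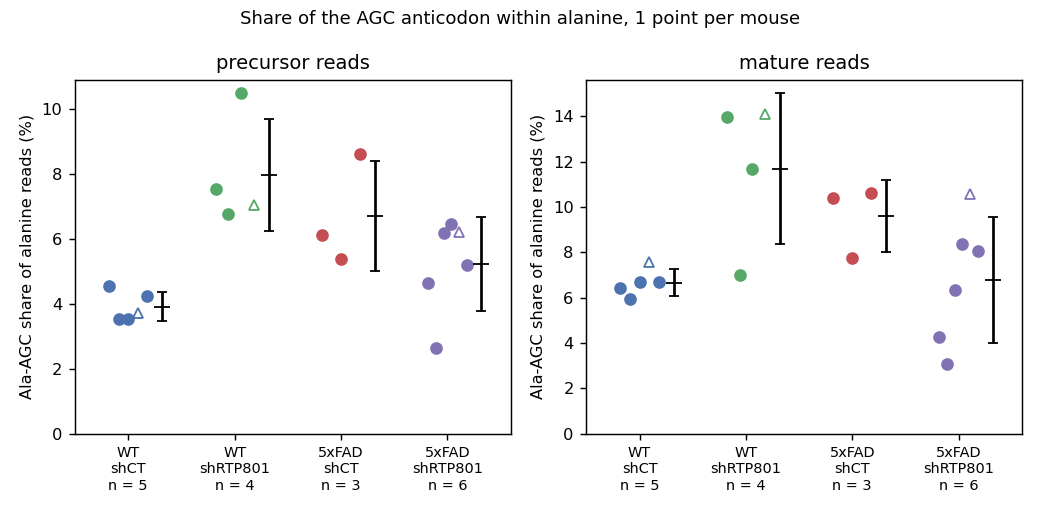
Share of Ala-AGC in all alanine reads (percent, axis from 0) among precursor reads and among mature reads, 1 point per mouse; open triangles are the 3 libraries with over 95% mature tRNA reads, and bars give mean ± SD. WT shCT mice sit at 3.52% to 4.54% in precursors, below every WT shRTP801 and 5xFAD shCT mouse, and mature reads show the same order with more overlap. Some gaps between precursor groups lie within counting error, and the mature alanine sum counts some CGC and TGC reads more than once.

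Mature reads showed the same order of AGC shares. Their alanine sum counts many CGC and TGC reads more than once, as described below. The AGC shares given here are therefore lower than they would be with each read counted once. Ala-AGC made up 5.94% to 7.58% of mature alanine reads in WT shCT mice, 7.75% to 10.6% in 5xFAD shCT mice, 6.99% to 14.1% in WT shRTP801 mice and 3.08% to 10.6% in 5xFAD shRTP801 mice. The first and second of these ranges did not overlap (log2 ratio 0.53, exact p = 0.0357, adjusted p = 0.388; 5.26% of 38 families stood apart in that direction), and WT shRTP801 overlapped WT shCT through mouse 17 (log2 ratio 0.81, exact p = 0.0317, adjusted p = 0.603). The level of mature Ala-AGC overlapped between library types: it held 0.146% to 0.286% of mature reads in the 3 libraries and 0.0979% to 0.201% in the other 15.

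At the level of single loci, no alanine locus was called in limma in any comparison (0 of 333 loci called in each, 0.0%), and edgeR and DESeq2 called none. At an unadjusted p under 0.05, 7 of 19 alanine loci differed between 5xFAD shCT and WT shCT, 6 of them lower, where 15.6% of all loci had such a p. The 6 were Ala-CGC-1-1 (log2 change -1.89 ± 0.76 SE), Ala-TGC-3-1 (-1.59 ± 0.72), Ala-TGC-1-1 (-1.49 ± 0.68), Ala-AGC-3-1 (-1.48 ± 0.68), Ala-AGC-4-1 (-1.27 ± 0.60) and Ala-AGC-7-1 (-1.21 ± 0.57), each with an adjusted p of 0.313. Ala-CGC-1-1, Ala-TGC-3-1 and Ala-TGC-1-1 moved together over mice, so they are not separate observations. Ala-AGC-7-1 rests on 35 reads and was at 0 in 3 libraries, and its change ran from -3.12 to -0.22 over the settings tried. Over the 19 loci, 13 had a lower mean, with a median log2 change of -0.69, against 0.03 over all 333 loci.

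Groups did not overlap for Ala-CGC-1-1 and Ala-TGC-3-1, which were lower in 5xFAD shCT (3.0% of loci in that direction). They did not overlap either for Ala-AGC-2-2 and Ala-AGC-5-1, which were higher (6.91% of loci). The 10 AGC loci thus held members in both directions.

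**Figure D4:**
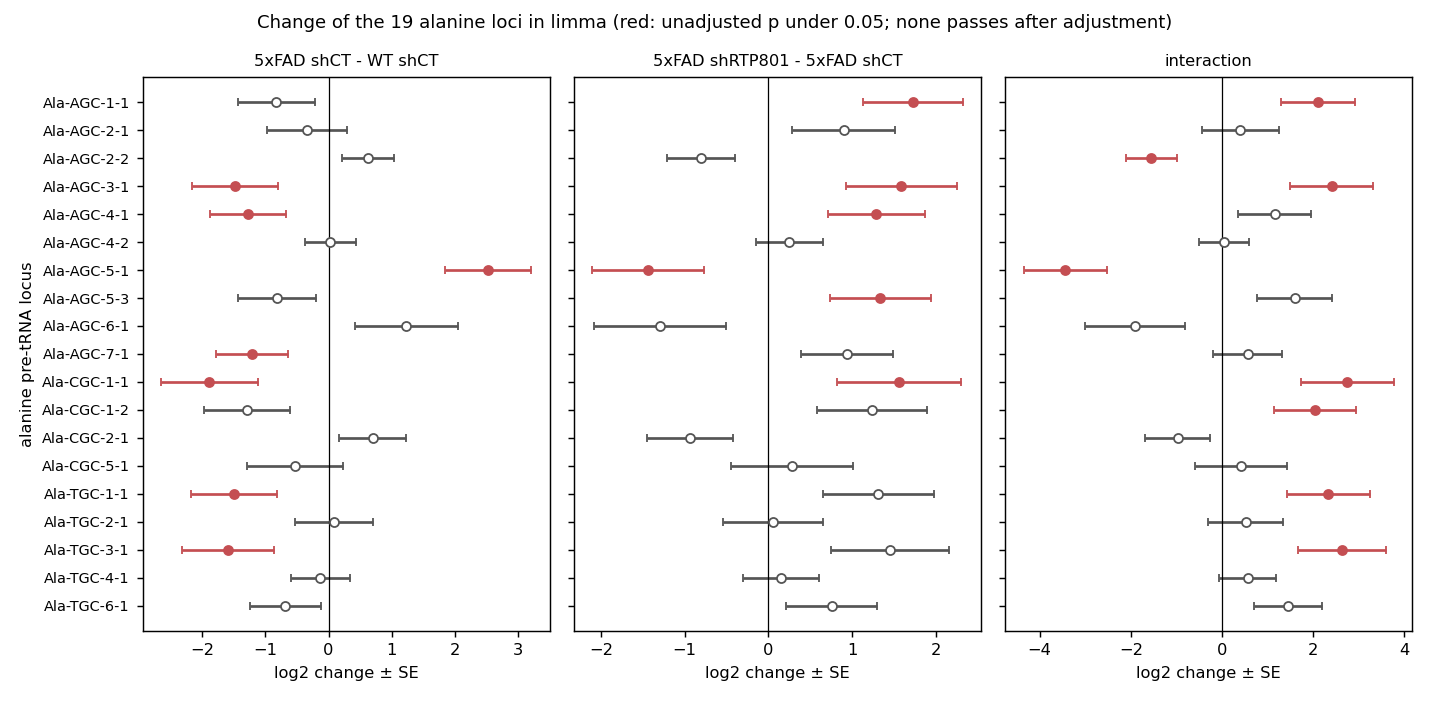
Log2 change ± SE of the 19 alanine pre-tRNA loci in limma for 5xFAD shCT against WT shCT, 5xFAD shRTP801 against 5xFAD shCT, and the interaction; red points have an unadjusted p under 0.05. Most loci lie on 1 side of 0 in each panel, with Ala-AGC-5-1, at 2.53, -1.44 and -3.44, among those on the other side, and no point passes after adjustment.

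With RTP801 silenced in 5xFAD mice, 15 of 19 alanine loci had a higher mean than in 5xFAD shCT (median log2 change 0.89, against -0.13 over all loci), and 5 did so at an unadjusted p under 0.05, with 1 lower, where 7.51% of all loci had such a p in either direction. The 5 were Ala-AGC-1-1 (1.72 ± 0.59), Ala-AGC-3-1 (1.58 ± 0.66), Ala-CGC-1-1 (1.55 ± 0.74), Ala-AGC-5-3 (1.33 ± 0.60) and Ala-AGC-4-1 (1.29 ± 0.58), and the lowest adjusted p was 0.452. The change of Ala-AGC-5-3 depended on single mice, from 0.43 without 5xFAD shCT mouse 1 to 2.34 without 5xFAD shCT mouse 18 (adjusted p in limma 0.928 and 0.112). Groups stood apart for Ala-AGC-1-1 and Ala-AGC-3-1, where 1.2% of loci did so in that direction. Ala-AGC-1-1 rests on 39 reads over the 18 libraries and was at 0 in 5 of them.

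In WT mice, silencing gave an unadjusted p under 0.05 at Ala-AGC-5-1 alone among the alanine loci (10.2% of all loci), and Ala-AGC-2-2 was the 1 locus of all 333 (0.3%) whose WT shRTP801 mice all lay above all WT shCT mice, at 0.0345%, 0.0275%, 0.0217% and 0.0309% against 0.0134%, 0.0118%, 0.0182%, 0.0214% and 0.0188%. Its limma change was 0.75 ± 0.38 (log2, adjusted p = 0.545). This locus held 5 to 87 reads per library, and its nearest values, 0.0217% and 0.0214%, lie within counting error. Between the silenced groups, Ala-AGC-1-1 was higher in 5xFAD (1.28 ± 0.54) and Ala-AGC-2-2 lower (-0.93 ± 0.37), both at an adjusted p of 0.991, with 2.1% of loci at an unadjusted p under 0.05.

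The interaction had an unadjusted p under 0.05 at 8 of 19 alanine loci, 6 positive and 2 negative, where 15.3% of all loci had such a p. These loci are not separate observations. Ala-CGC-1-1, Ala-CGC-1-2, Ala-TGC-1-1 and Ala-TGC-3-1 moved together over mice (r of 0.96 to 0.99). Ala-AGC-1-1 and Ala-AGC-5-1 rest on 39 and 46 reads. The positive ones were Ala-CGC-1-1 (2.75 ± 1.02), Ala-TGC-3-1 (2.62 ± 0.96), Ala-AGC-3-1 (2.40 ± 0.91), Ala-TGC-1-1 (2.33 ± 0.91), Ala-AGC-1-1 (2.10 ± 0.82) and Ala-CGC-1-2 (2.04 ± 0.90), at adjusted p of 0.241 to 0.309. The negative ones were Ala-AGC-2-2 (-1.56 ± 0.56, adjusted p = 0.241) and Ala-AGC-5-1.

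Ala-AGC-5-1 went the opposite way to most alanine loci in these comparisons and was among the rarest, with 46 reads in all. It had 0, 2, 1, 0 and 0 reads in WT shCT mice 3, 5, 6, 11 and 15, then 2, 4, 3 and 8 in WT shRTP801 mice 4, 10, 17 and 21, and 4, 6 and 3 in 5xFAD shCT mice 1, 16 and 18. In 5xFAD shRTP801 mice the counts ran from 0 to 4. The limma changes were 2.53 ± 0.69 for 5xFAD shCT to WT shCT (adjusted p = 0.280), 2.00 ± 0.63 for WT shRTP801 to WT shCT (adjusted p = 0.437) and -3.44 ± 0.92 for the interaction (adjusted p = 0.159). Without WT shRTP801 mouse 4 the interaction was -3.91 and passed the threshold (adjusted p = 0.0450 in limma), and under the other settings its adjusted p lay between 0.0623 and 0.743. With so few reads the fitted size depends on the pseudocount: it was -6.21 with 0.0001% added in place of 0.001%, and -1.004 with 0.01%.

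Among mature reads, alanine held 1.88% ± 0.502 (SD, n = 18), of which Ala-TGC held 1.27% ± 0.380 (number 15 of 50 families), Ala-CGC 0.467% ± 0.127 (number 26) and Ala-AGC 0.148% ± 0.0473 (number 36). These sums count some reads more than once. The mature tRNAs Ala-TGC-2 and Ala-TGC-3 had the same number of three-prime reads in all 18 libraries, 1275352 in total. Ala-CGC-1, which carries another anticodon, had 1272605, a summed difference of 0.327% from Ala-TGC-2 and at most 1.02% in 1 library. With near-identical tRNAs counted once, mature alanine reads were 1.03% ± 0.267 of the class (n = 18).

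**Figure D5:**
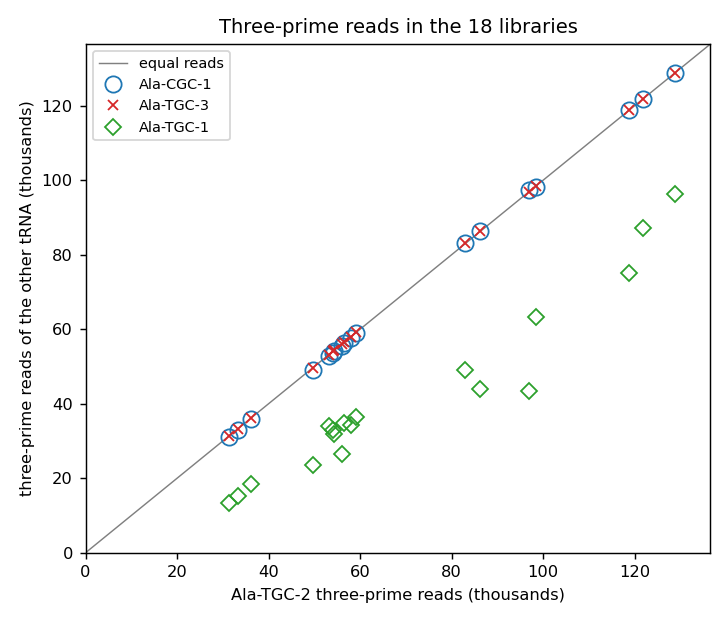
Three-prime reads (in units of 1000) of Ala-CGC-1, Ala-TGC-3 and Ala-TGC-1 plotted against those of Ala-TGC-2 in the 18 libraries, with the line of equal reads. Ala-CGC-1 and Ala-TGC-3 fall on the line in every library, and Ala-TGC-1 falls below it.

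Most mature Ala-CGC and Ala-TGC reads therefore cannot be told apart, and their log2 shares correlated at r = 0.99 over the 18 mice (rho 0.99), against 0.76 in precursors. The reads of Ala-AGC-6 and Ala-AGC-7 were also close (three-prime reads differing by 1.56% in sum). Of 24 mature alanine tRNAs, 17 passed the filter, and 7 did not: Ala-AGC-8, Ala-CGC-3, Ala-CGC-4, Ala-CGC-6, Ala-CGC-7, Ala-TGC-5 and Ala-TGC-8, with 44 to 918 reads each over all libraries. The 7 with a mean of at least 0.05% were Ala-TGC-2 and Ala-TGC-3 (0.461% ± 0.126 each), Ala-CGC-1 (0.459% ± 0.126), Ala-TGC-1 (0.271% ± 0.115), Ala-TGC-4 (0.0660% ± 0.0180), Ala-AGC-3 (0.0621% ± 0.0174) and Ala-AGC-2 (0.0574% ± 0.0317).

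Mature alanine reads came almost wholly from the 3′ end. Three-prime reads made up 99.2% ± 0.185 of Ala-AGC, 99.4% ± 0.333 of Ala-CGC and 99.7% ± 0.147 of Ala-TGC reads (n = 18), against a median of 92.4% over the 49 families measured; only 7, 4 and 3 families had a higher share. Five-prime reads were 0.185% ± 0.136, 0.477% ± 0.345 and 0.102% ± 0.0563, whole-tRNA reads were at most 0.0636% in any library, and the remaining reads, of no end, were 0.556% ± 0.230, 0.144% ± 0.0503 and 0.224% ± 0.107. Over all mature tRNAs, three-prime reads were 52.1% to 95.4% of a library.

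A few rare alanine tRNAs differed from this. Ala-CGC-5 had 5842 five-prime and no three-prime reads, and Ala-CGC-6 had 47 reads, all five-prime. Ala-CGC-5 held 0.00431% to 0.00686% of mature reads in the 3 libraries with over 95% mature reads and 0.000457% to 0.00373% in the others. The 24 antisense entries of the alanine tRNAs held 0 reads.

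The alanine read types did not differ between groups in limma after adjustment (0 of 196 read types called in each comparison, 0.0%). Five-prime reads of Ala-TGC had an unadjusted p under 0.05 in 5xFAD shRTP801 against WT shRTP801 (log2 change -0.48 ± 0.21, adjusted p = 0.899; 4.08% of read types) and in the interaction (-0.84 ± 0.32, adjusted p = 0.397; 12.2%). Without the 3 libraries that interaction was -1.17 and passed the threshold (adjusted p = 0.0498 in limma), as 1 of 8 read types called in that fit. The shares behind it are small, with 80 or more five-prime Ala-TGC reads per library. The three-prime shares of all 3 families lay between 98.5% and 99.8% in every mouse.

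Between groups, mature Ala-TGC shares were 1.42% ± 0.319 (SD, n = 5) in WT shCT, 1.04% ± 0.207 (n = 4) in WT shRTP801, 1.05% ± 0.134 (n = 3) in 5xFAD shCT and 1.40% ± 0.509 (n = 6) in 5xFAD shRTP801. Mature Ala-CGC had means of 0.526%, 0.391%, 0.391% and 0.508% in the same order. As in the precursors, the means of 5xFAD shCT and WT shRTP801 were below those of the other groups, but the ranges overlapped in every comparison of both families. The log2 ratio of mature alanine as a whole was -0.39 for 5xFAD shCT to WT shCT (exact p = 0.107, adjusted over 23 amino acids p = 0.685) and 0.36 for 5xFAD shRTP801 to 5xFAD shCT (exact p = 0.310, adjusted p = 0.913).

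The widest range in mature reads was in 5xFAD shRTP801 mice, where mature alanine ran from 1.35% to 3.17%. The highest 2 of these mice, 12 and 14, were also the highest 2 of their group in alanine precursors. The log2 ratio for WT shRTP801 to WT shCT was -0.37 (exact p = 0.127, adjusted p = 0.803), and for 5xFAD shRTP801 to WT shRTP801 0.33 (exact p = 0.295, adjusted p = 0.942). These ratios without the 3 libraries with over 95% mature reads were -0.52 and 0.48, and those of 5xFAD shCT to WT shCT and 5xFAD shRTP801 to 5xFAD shCT were -0.42 and 0.38, all with overlap.

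In limma on all 49 mature families and on all 186 mature tRNAs, no alanine member was called in any comparison (0.0% of features called in each). The interaction was 0.81 ± 0.39 for mature Ala-TGC, 0.74 ± 0.36 for Ala-CGC and -0.69 ± 0.40 for Ala-AGC, all at an adjusted p of 0.411 (8.16% of families had an unadjusted p under 0.05). Mature Ala-CGC and Ala-TGC had a lower mean in 5xFAD shCT and in WT shRTP801 than in WT shCT, where 40.8% and 44.9% of families were lower. They had a higher one in 5xFAD shRTP801 than in 5xFAD shCT and in WT shRTP801, where 65.3% and 63.3% were lower. This is not separate evidence from each, since with near-identical tRNAs counted once, which leaves out Ala-CGC-1, the mature Ala-CGC ratios turned to 0.046 (5xFAD shCT to WT shCT), -0.18 (5xFAD shRTP801 to 5xFAD shCT) and -0.13 (5xFAD shRTP801 to WT shRTP801). As a percentage of mature reads, Ala-AGC lay in the other direction in each comparison, and its interaction was negative, as for 61.2% of families, but this turned with the scaling. In the deposited counts its log2 change was -0.63 in 5xFAD shCT and -0.07 in WT shRTP801 against WT shCT, 0.26 in 5xFAD shRTP801 against 5xFAD shCT, and 0.33 for the interaction, where the median mature family shifted by -0.77, -0.47, 0.55 and 1.02. Relative to the median family, Ala-AGC was at -0.09, 0.35, -0.13 and -0.43 under both scalings. That match is set by arithmetic, since the scalings differ only by a factor per library. Of the mature tRNAs, Ala-AGC-4 (-0.95 ± 0.35), Ala-AGC-5 (-0.80 ± 0.36) and Ala-TGC-1 (1.14 ± 0.52) had an unadjusted p under 0.05 in the interaction, at an adjusted p of 0.390, where 9.68% of mature tRNAs did.

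The rare mature alanine tRNAs Ala-AGC-4, Ala-AGC-6, Ala-AGC-7 and Ala-CGC-2 were higher in every 5xFAD shCT than in every WT shCT mouse, where 5.91% of mature tRNAs stood apart in that direction. The AGC ones of these were also lower in every 5xFAD shRTP801 than in every 5xFAD shCT mouse (3.23%). Ala-AGC-6, Ala-AGC-7 and Ala-CGC-2 had lower shares in each of the 3 libraries, which include no 5xFAD shCT mouse, than in any other library, and Ala-AGC-4 overlapped; Ala-AGC-6, for example, held 0.00146% to 0.00189% there and 0.00315% to 0.00864% in the others. In limma without the 3 libraries, no mature tRNA was called in any comparison (0 of 186). At an unadjusted p under 0.05 there, 2 of 17 alanine tRNAs (15 of all 186) differed between 5xFAD shCT and WT shCT. Such a p held for 1 of 17 (5 of 186) between the 5xFAD groups and 4 of 17 (36 of 186) between the WT groups. It held for 3 of 17 (8 of 186) between the silenced groups and 9 of 17 (44 of 186) in the interaction. Library type itself was not tested.

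Precursor reads per 1000 mature reads had a median over mice of 4.74 for Ala-AGC, 4.81 for Ala-CGC and 6.19 for Ala-TGC, near the median of 4.73 over 47 families. They ranged most for Ala-CGC, from 1.78 to 32.7. The highest Ala-CGC values of WT shCT (28.3), WT shRTP801 (22.9) and 5xFAD shRTP801 (32.7) were in the 3 libraries with over 95% mature reads. No 5xFAD shCT mouse is among these libraries, so the group means also differ in library type. In 5xFAD shCT the means were 3.15 ± 1.35, 3.19 ± 1.60 and 5.05 ± 1.15 for AGC, CGC and TGC (n = 3), and in WT shCT 5.16 ± 3.14, 12.2 ± 11.3 and 7.99 ± 3.76 (n = 5). The limma fit called 0 of 47 families (0.0%) in each comparison, with or without the 3 libraries. The log2 changes in 5xFAD shCT against WT shCT were -0.57 ± 0.54, -1.45 ± 0.85 and -0.57 ± 0.49 against a median of -0.52 over all families (adjusted p of at least 0.516), so the values of Ala-AGC and Ala-TGC were close to that of the median family.

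Ala-AGC is 1 of 8 families with an adenosine at the first anticodon position, and its own log2 change in 5xFAD shCT against WT shCT was -0.23 in precursors and 0.14 in mature reads. In precursors, 4 of the 8 had a higher and 4, Ala-AGC included, a lower mean in 5xFAD shCT than in WT shCT. Of the 8, 1 was higher at an unadjusted limma p under 0.05. The median log2 change of the 8 was -0.05, against -0.02 over all 48 families. In mature reads, 5 of 8 were higher, 1 at an unadjusted p under 0.05, with a median of 0.25 against 0.23. The 4 intron-containing families, Arg-TCT, Ile-TAT, Leu-CAA and Tyr-GTA, all had a higher precursor mean in 5xFAD shCT (median log2 change 2.01), while each alanine family had a lower one (median -0.78). That list and these samples were already known together, so its direction is not independent evidence.

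In precursors, the families outside alanine whose log2 share over the 18 mice was most like Ala-CGC were Thr-TGT (r = 0.87), Ile-AAT (0.86) and Val-AAC (0.76). Those most like Ala-TGC were Cys-GCA (0.72), Gln-CTG (0.67) and Gly-CCC (0.60), and those most like Ala-AGC were Thr-TGT (0.69), Arg-CCT (0.64) and Gly-CCC (0.61). Within alanine, Ala-CGC correlated with Ala-AGC at 0.77 and with Ala-TGC at 0.76, and Ala-AGC with Ala-TGC at 0.50. In mature reads, likeness outside alanine was weaker, with Thr-TGT (0.61) highest for Ala-AGC and Arg-ACG highest for Ala-CGC (0.53) and Ala-TGC (0.47), and mature Ala-AGC correlated with mature Ala-TGC at -0.18. Spearman's rho for the highest of each was 0.85, 0.76 and 0.71 in precursors and 0.69, 0.56 and 0.52 in mature reads.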

How the data were processed

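Hydro-tRNA-seq was available for 18 mice. The authors counted 50 bp paired-end reads with tRAX per tRNA, locus and read type and divided each library by a size factor; the deposited values are this normalized signal. The submitters' processing notes name build mm39, and the aligner is not given in the sources used here. In each library 100% of values were whole multiples of a step particular to that library (tolerance 1e-06 reads), which gave back whole reads. For the library totals, 324 near-identical copies (summed difference of at most 5%) were left out, but not the 24 near-identical mature tRNAs. Mature tRNA reads, library totals and mature percentages therefore count some reads more than once. Families are amino acid and anticodon; precursor reads sum whole, partial and trailer reads.

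Percentages of the class plus 0.001% were compared on the log2 scale with limma 3.58.1 (R 4.3.3) in 1 fit of the 4 groups. Features whose mean was under 0.001% were left out, and p-values were adjusted over all others (Benjamini-Hochberg, threshold 0.05). Read types (0.1% added) and precursor to mature ratios (1 read added) were fitted likewise. Shares were compared by two-sided exact permutation of group means (p as 2 times the smaller tail) for every family, amino acid or anticodon share of the class, with adjustment over all of these. Among the alternatives, DESeq2 1.42.0 and edgeR 4.0.16 were run on the whole reads; they called no alanine member, edgeR called 0 families in any comparison (1 to 7 precursor and 0 to 7 mature families at an unadjusted p under 0.05), and DESeq2 called 1, mature, in WT shRTP801 against WT shCT. Python 3.11.15, numpy 2.4.6, pandas 2.3.3, scipy 1.17.1 and matplotlib 3.10.9 were used, and the scripts were checked on simulated data. Named members are the 3 families, and loci and mature tRNAs with a mean of at least 0.05% or an unadjusted limma p under 0.05. The members and lists were chosen with earlier results of these data known. One library per mouse is the unit of replication.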

Additional observations from a re-analysis of the deposited data

Results flagged for a closer look

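Of 87 sets of 4 to 6 mice (29 alanine families and named members, in the groups of that size), 7 held a mouse that stood far from the others of its group. The cutoff would flag about 1 in 20 sets of separate, normally distributed values. Families and their own loci are not separate sets, and some members were chosen by p, so the 7 are not read as an excess. Of the 7, 4 are 1 mouse, WT shRTP801 mouse 4, which is among the 3 libraries with over 95% mature reads. Its precursor shares were 1.08% for Ala-CGC against 0.175% to 0.322% in the other mice of the group, 0.829% for Ala-CGC-1-1 against 0.0995% to 0.212%, 0.567% for Ala-TGC-1-1 against 0.117% to 0.181%, and 0.653% for Ala-TGC-3-1 against 0.124% to 0.177%.

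In 5xFAD shRTP801, precursor Ala-AGC-1-1 was highest in mouse 2 at 0.00775%, from 5 reads, against 0.00188% to 0.00365% in the others. Mature Ala-AGC-2 was highest in mouse 7, also of the 3 libraries, at 0.110% against 0.0294% to 0.0526%. Mature Ala-TGC-4 was highest in WT shRTP801 mouse 17 at 0.0651% against 0.0501% to 0.0513%. No interaction of an alanine member passed the threshold over all 18 mice.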

How the results depend on the processing

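No paired analysis was possible because the mouse numbers differ between all groups. The 30 counts of alanine members called stayed at 0 under the alternatives run, except for 1 read type in the interaction without the 3 libraries with over 95% mature reads (a choice made after seeing the data), and the loci in the interaction, where leaving out single mice gave 0 to 1.

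Of the family shares, precursor Ala-AGC had no settled direction in the comparisons with WT shRTP801. For 5xFAD shCT to WT shCT its log2 ratio stayed negative under all settings (-1.96 to -0.02). For 5xFAD shRTP801 to 5xFAD shCT it stayed positive (0.40 to 2.18). Its log2 ratio for WT shRTP801 to WT shCT was -0.16 without the 3 libraries and ran from -0.12 to 0.44 with single mice left out, and that for 5xFAD shRTP801 to WT shRTP801 from -0.095 to 0.29. Mature Ala-AGC turned with the scaling: 5xFAD shCT to WT shCT was -0.60 as a percentage of all reads and -0.86 in deposited counts, and 5xFAD shRTP801 to 5xFAD shCT was 0.49 and 0.61. Deposited counts shifted the median mature family by -0.77 and 0.55 (log2) in these comparisons. Relative to that median, mature Ala-AGC was at -0.09 and -0.13 under both scalings, which a factor per library leaves unchanged by arithmetic. With near-identical tRNAs counted once, which leaves Ala-CGC without Ala-CGC-1, mature Ala-CGC ratios were 0.046 (5xFAD shCT to WT shCT), -0.18 (5xFAD shRTP801 to 5xFAD shCT) and -0.13 (5xFAD shRTP801 to WT shRTP801). The cause was not tested. No exact test passed after adjustment under any setting. Depth limits the AGC loci, several of which are at 0 reads in some libraries.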
